A study of Homo sapiens with 18 samples.

Results

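The genes described here encode the receptors and ligands of the VEGF and angiopoietin systems that are active in endothelium. They are KDR, FLT1, NRP1, NRP2, TEK, TIE1, ANGPT2, VEGFC and PGF, a list of 9 genes among the 18417 genes of the arrays. Each was followed through the probe set with the highest mean over all arrays. All 9 were found in the value table, and no filter on level was used. The study measured RNA in human umbilical vein endothelial cells (HUVEC), a commercial culture of the cells that line a large vein, on 18 Affymetrix whole-transcript arrays, 3 in each of 6 groups. In 4 groups the cells spent 3 days in culture with extracellular vesicles (EVs), small membrane-bound particles released by cells, from a T cell line. They are JinB8 CD63+ EVs, JinB8 MHC1+ EVs, Jurkat CD63+ EVs and Jurkat MHC1+ EVs. Jurkat is a human T cell leukaemia line and JinB8 is a Jurkat mutant that lacks CD47, a receptor for thrombospondin-1. CD63, a tetraspanin of endosomal vesicles, and MHC class 1 are the surface proteins through which the EVs were captured on beads. The control cells had IgG beads without EVs, or were untreated. The labels give the same endothelial culture for all 6 groups, and no time for the untreated cells.

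Per the labels' protocols, conditioned medium from the flasks of each T cell line was pooled before the EVs were purified, so the arrays of an EV group may share 1 EV preparation. The free text of 5 of the 6 JinB8 arrays numbers the line differently, but the bracketed names all give JinB8. Whether a group's 3 arrays came from separate endothelial cultures is not stated, so p-values here cover the spread among these arrays alone, which may be technical. In such bulk RNA, fewer cells of a type and less RNA per cell cannot be told apart.

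VEGF receptors are tyrosine kinases that carry the signal of the VEGF family into the endothelial cell. KDR (VEGFR2) drives proliferation, migration and permeability, whereas FLT1 (VEGFR1) binds VEGFA tightly, signals weakly and can act as a decoy. The neuropilins NRP1 and NRP2 are co-receptors for VEGFs and also bind class 3 semaphorins. TEK (TIE2) is the receptor of the angiopoietins and TIE1 its partner, and together they keep resting vessels stable. ANGPT2 is stored and released by endothelial cells and in many settings opposes the stabilising ligand ANGPT1. VEGFC acts mainly through FLT4 (VEGFR3) and also KDR, and PGF acts through FLT1. JinB8 and Jurkat EVs are of interest for this family because CD47 is known to associate with KDR in endothelial cells and thrombospondin-1 to restrain KDR signalling through CD47. Here CD47 is lacking in the donor of the EVs, while the endothelial culture is the same in all 6 groups. The RNA level of KDR does not measure its association with CD47.

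The promoters of the 4 receptor tyrosine kinase genes are shown as background. The levels of these receptors moved together from array to array, as described further on, and the cause of that was not tested. Of the 9 genes, 7 had a promoter in the RefSeq table that could be used here (build GRCh38.p14). Each sequence is the 250 bases before the transcription start, read 5′ to 3′ on the strand of the gene. Capitals mark GGAA, the core of the ETS motif, or TTCC, its reverse complement. ETS factors such as ERG and FLI1 are known regulators of endothelial genes. The KDR promoter lies at chr4:55125596-55125845 on the minus strand, that of FLT1 at chr13:28495129-28495378 on the minus strand, that of TIE1 at chr1:43300732-43300981 on the plus strand and the first of the TEK starts at chr9:27108975-27109224 on the plus strand.
KDR: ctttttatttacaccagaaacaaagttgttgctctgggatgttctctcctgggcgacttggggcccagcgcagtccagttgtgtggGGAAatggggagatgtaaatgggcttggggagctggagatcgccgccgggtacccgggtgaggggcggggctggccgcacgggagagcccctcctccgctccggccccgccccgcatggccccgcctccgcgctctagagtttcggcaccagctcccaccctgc
FLT1: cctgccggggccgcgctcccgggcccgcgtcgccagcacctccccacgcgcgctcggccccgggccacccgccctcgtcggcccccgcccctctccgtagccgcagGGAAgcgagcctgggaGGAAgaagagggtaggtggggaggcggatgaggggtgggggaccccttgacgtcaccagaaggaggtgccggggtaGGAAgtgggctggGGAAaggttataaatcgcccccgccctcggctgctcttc
TIE1: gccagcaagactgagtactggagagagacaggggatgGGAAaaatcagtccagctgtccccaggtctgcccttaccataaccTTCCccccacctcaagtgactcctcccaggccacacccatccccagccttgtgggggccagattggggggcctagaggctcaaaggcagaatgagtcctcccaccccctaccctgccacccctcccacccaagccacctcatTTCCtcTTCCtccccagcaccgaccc
TEK: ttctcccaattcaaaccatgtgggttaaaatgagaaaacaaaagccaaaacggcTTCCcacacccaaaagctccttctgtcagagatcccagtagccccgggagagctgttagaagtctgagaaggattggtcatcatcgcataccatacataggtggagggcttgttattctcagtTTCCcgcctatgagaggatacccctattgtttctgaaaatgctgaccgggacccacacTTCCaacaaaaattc
The core was present once in KDR, 4 times each in FLT1 and TIE1, and 3 times in TEK. It occurs in 92.7% of 35116 promoter windows of the same length, so its presence sets these genes apart from few others. The longer ETS motif CGGAAG, found in 16.5% of windows on either strand, had no match in these 4 windows and 1 in VEGFC. GGGCGG, the SP1/KLF motif, is present in 42.6% of all windows. It matched 2 times in KDR, 3 times in FLT1, 3 times in NRP2, 2 times in VEGFC and 2 times at the first start of PGF, with no match in TIE1 or TEK. A match is a run of letters and does not show that a factor binds there.

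The endothelial identity of the cells was visible in 16 of the 18 arrays. The 13 endothelial marker genes, among them PECAM1 and CDH5, had a mean log2 level of 9.10 to 9.33 in the 12 EV arrays. It was 9.26 to 9.34 in the 4 control arrays of replicates 1 and 2, and between 6.38 and 7.32 in replicate 3 of the control groups. Those 2 arrays (IgG beads replicate 3 and untreated replicate 3) had a median Pearson's r of 0.636 and 0.649 with the other arrays, against at least 0.932 for any pair among the other 16. Their values also spread less, with SDs across the probe sets of 1.57 and 1.56. The 11 T cell markers averaged 4.20 to 4.79 in the EV arrays, 4.28 to 4.49 in controls 1 and 2 and 5.49 in both arrays of replicate 3. The 12 markers of fibroblasts and smooth muscle averaged 4.95 to 5.52, 5.06 to 5.22, and 5.57 to 5.95 in the same order. For the 7 monocyte markers the means were 4.50 to 5.01, 4.53 to 4.67, and 5.16 to 5.19. The 7 epithelial markers averaged 4.89 to 5.38, 5.04 to 5.10, and 5.97 to 6.03. What made these arrays differ was not tested. The 5 lymphatic markers averaged 5.87 to 6.12 in the EV arrays, 6.17 to 6.29 in controls 1 and 2 and 5.37 to 5.45 in replicate 3. Of these, RELN averaged 7.45 ± 0.17 with JinB8 CD63+ EVs (SD, n = 3) and 8.59 ± 0.12 with IgG beads (n = 2), with a limma adjusted p of 0.14 in 16 arrays. Without Jurkat MHC1+ replicate 1 as well (15 arrays), RELN was called in that comparison, at -1.15 ± 0.15 (SE) with an adjusted p of 0.0042 in limma, and in the F test over the 6 groups (adjusted p = 0.011, beside 0.662% of all genes). In the 11 EV arrays left without it, RELN was also called lower with JinB8 CD63+ than with JinB8 MHC1+ EVs (-0.58 ± 0.11, limma adjusted p = 0.031) and in the F test over the EV groups (adjusted p = 0.03, beside 0.331% of all genes). The part of the lymphatic markers in the results was not tested. Jurkat MHC1+ replicate 1 stood between, with a median r of 0.947 and an SD of 2.01, where the other 15 arrays had an SD of 2.05 to 2.25. Every comparison with the controls is therefore given on all 18 arrays and on the 16 arrays without replicate 3 of both control groups.

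Of the VEGF receptors, KDR lay within a range of 0.69 in 16 of the 18 arrays. Its log2 level in replicates 1, 2 and 3 was 9.96, 10.11 and 9.89 with JinB8 CD63+ EVs, 9.87, 10.00 and 10.06 with MHC1+ EVs of JinB8, 9.94, 10.02 and 10.05 with Jurkat CD63+ EVs, and 9.45, 9.97 and 9.97 with Jurkat MHC1+ EVs. It was 10.05, 10.12 and 5.11 with IgG beads and 9.75, 10.14 and 5.90 in untreated cells. The 2 low values are the arrays of replicate 3, and outside them the EV groups and the controls overlapped. FLT1 was at 7.90, 7.91 and 7.25 with JinB8 CD63+ EVs, 7.73, 7.71 and 7.84 with MHC1+ EVs of JinB8, 7.87, 7.91 and 8.05 with Jurkat CD63+ EVs, and 7.28, 7.77 and 7.92 with Jurkat MHC1+ EVs. It was at 7.95, 8.10 and 5.55 with IgG beads and at 7.66, 8.02 and 5.36 in untreated cells. Among the EV arrays JinB8 CD63+ replicate 3 and Jurkat MHC1+ replicate 1 were the low ones for FLT1, and the remaining EV arrays lay within the range of controls 1 and 2. In the 16 arrays, the FLT1 group means ran between 7.66 ± 0.33 (SD, n = 3) with Jurkat MHC1+ EVs and 8.02 ± 0.11 (n = 2) with IgG beads.

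The neuropilins were likewise low in replicate 3 of both control groups. NRP1 was at 9.54, 9.59 and 9.38 with JinB8 CD63+ EVs, 9.62, 9.68 and 9.82 with MHC1+ EVs of JinB8, 9.75, 9.66 and 9.70 with Jurkat CD63+ EVs, and 9.22, 9.73 and 9.78 with Jurkat MHC1+ EVs. It was at 9.81, 9.83 and 5.23 with IgG beads and 9.54, 9.76 and 6.44 in untreated cells. All 3 arrays with JinB8 CD63+ EVs were below those with JinB8 MHC1+ EVs, and also below those with Jurkat CD63+ EVs. Over all genes, 27.3% did not overlap in the first of these comparisons and 9.36% in the second. NRP2 was at 10.09, 9.96 and 10.05 with JinB8 CD63+ EVs, 9.85, 9.79 and 9.95 with MHC1+ EVs of JinB8, 10.07, 10.10 and 10.02 with Jurkat CD63+ EVs, and 9.82, 10.07 and 10.01 with Jurkat MHC1+ EVs. It was at 10.00, 10.15 and 6.56 with IgG beads and 9.78, 10.15 and 6.80 in untreated cells. The lowest mean NRP2 level of the EV groups was with JinB8 MHC1+ EVs, whose arrays lay inside the range of the untreated cells. A second probe set of NRP2 averaged 9.59 ± 0.28 with Jurkat MHC1+ EVs, where the first averaged 9.97 ± 0.13 (SD, n = 3 each). The first gave JinB8 MHC1+ EVs as the lowest group (9.86 ± 0.08) and the second gave Jurkat MHC1+ EVs, with 9.70 ± 0.09 for JinB8 MHC1+ EVs.

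Of the angiopoietin receptors, TEK varied more through a single array than TIE1 did. The SD of TEK was 0.26 over the 16 arrays and 0.14 without Jurkat MHC1+ replicate 1, and that of TIE1 0.13 and 0.11. TEK was at 9.54, 9.87 and 9.56 with JinB8 CD63+ EVs, 9.60, 9.81 and 9.75 with MHC1+ EVs of JinB8, 9.73, 9.70 and 9.84 with Jurkat CD63+ EVs, and 8.77, 9.69 and 9.71 with Jurkat MHC1+ EVs. It was at 9.69, 9.71 and 5.27 with IgG beads and 9.33, 9.77 and 5.90 in untreated cells. The 8.77 of Jurkat MHC1+ replicate 1 is 0.93 below the mean of its group mates, while the median gene of that array lay 0.09 above. TIE1, the orphan partner of TEK, was at 9.67, 9.86 and 9.70 with JinB8 CD63+ EVs, 9.75, 9.72 and 9.74 with MHC1+ EVs of JinB8, 9.91, 9.89 and 9.90 with Jurkat CD63+ EVs, and 9.47, 9.64 and 9.91 with Jurkat MHC1+ EVs. It was at 9.83, 9.85 and 6.05 with IgG beads and 9.57, 9.83 and 6.77 in untreated cells. With Jurkat CD63+ EVs its 3 arrays lay above all 6 arrays with JinB8 EVs. The closest arrays were 0.0302 apart, and 1 array with Jurkat MHC1+ EVs reached the same level. Between the CD63+ EVs of JinB8 and Jurkat, 9.36% of all genes did not overlap. The share of all genes for 3 arrays against 6 was not computed.

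The ligands set the discordant arrays apart less than the receptors did. ANGPT2 was at 5.75, 6.06 and 6.08 with JinB8 CD63+ EVs, 6.29, 6.23 and 6.30 with MHC1+ EVs of JinB8, 6.60, 6.08 and 6.75 with Jurkat CD63+ EVs, and 5.91, 6.07 and 6.58 with Jurkat MHC1+ EVs. It was at 6.82, 6.01 and 5.68 with IgG beads and 6.51, 6.48 and 6.41 in untreated cells. With JinB8 CD63+ EVs every array was below every untreated array, with replicate 3 of the untreated cells included. The share of all genes that separate these 2 groups was not computed. The arrays with IgG beads spread over the whole range of the gene with replicate 3, and lay at 6.82 and 6.01 without it. VEGFC was at 8.45, 8.33 and 8.60 with JinB8 CD63+ EVs, 8.31, 8.31 and 8.33 with MHC1+ EVs of JinB8, 8.54, 8.33 and 8.37 with Jurkat CD63+ EVs, and 8.19, 8.59 and 8.34 with Jurkat MHC1+ EVs. It was at 8.45, 8.50 and 6.76 with IgG beads and 8.22, 8.57 and 6.19 in untreated cells. Outside replicate 3 the EV groups and the controls overlapped for VEGFC. PGF was at 7.46, 7.74 and 7.61 with JinB8 CD63+ EVs, 7.90, 7.82 and 7.84 with MHC1+ EVs of JinB8, 7.72, 7.74 and 7.81 with Jurkat CD63+ EVs, and 7.84, 7.60 and 7.86 with Jurkat MHC1+ EVs. It was at 7.85, 7.66 and 7.12 with IgG beads and 7.70, 7.76 and 6.66 in untreated cells. Without replicate 3 of the controls, the mean of PGF was lowest with JinB8 CD63+ EVs and highest with JinB8 MHC1+ EVs, and the other groups lay between them.

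**Figure D1:**
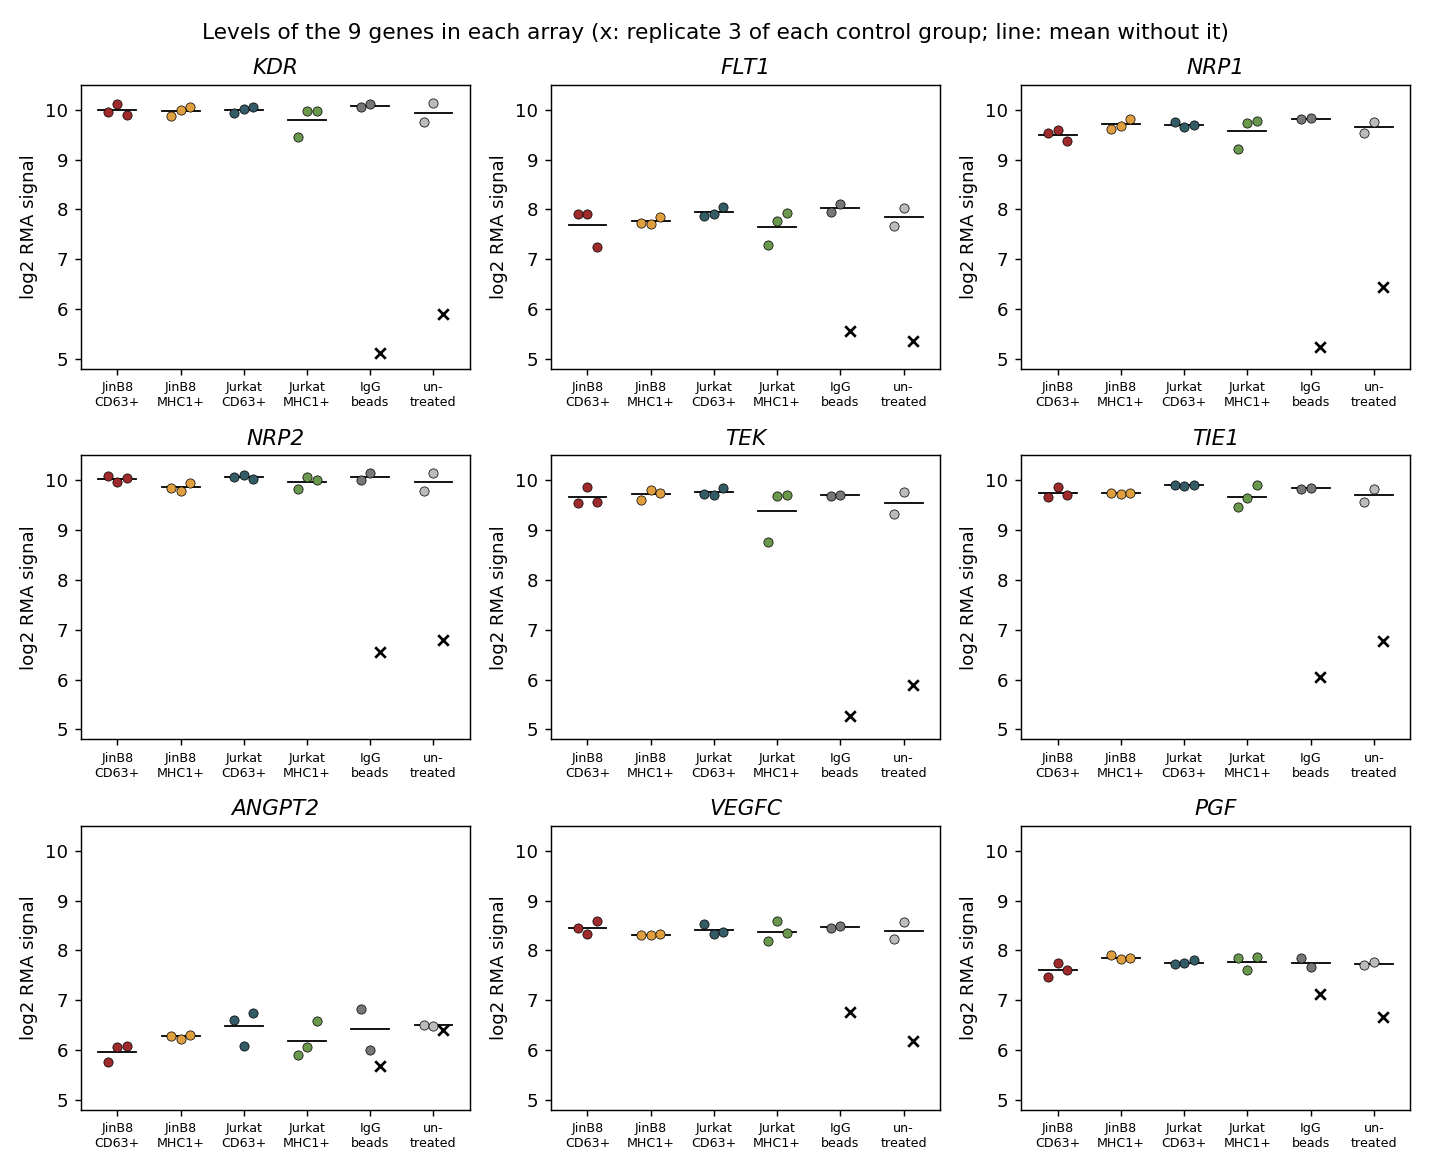
Log2 RMA signal (y axis) of each of the 9 genes in every array of the 6 groups (x axis). Points are arrays, crosses are replicate 3 of the IgG bead and untreated groups, and lines are group means without those arrays. For KDR the crosses sit at 5.11 and 5.90 and all other arrays between 9.45 and 10.14, while the ANGPT2 crosses at 5.68 and 6.41 lie near the other arrays.

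In the order of their group means over the 16 arrays, neighbouring groups differed by less than the spread within groups for 8 of the 9 genes. The share over all genes was not computed for this measure, and neighbouring means always lie closer than the lowest and highest. The largest gap between neighbours was 0.06 for VEGFC against a within-group SD of 0.14, and 0.23 for ANGPT2 against 0.30. For KDR, FLT1, NRP1, NRP2, TEK and TIE1 it was 0.09 to 0.16 against an SD of 0.12 to 0.28. PGF was the exception, with a gap of 0.13 between JinB8 CD63+ EVs (7.60 ± 0.14, n = 3) and untreated cells (7.73 ± 0.04, n = 2) against an SD of 0.10. KDR, FLT1, TEK and TIE1 were lowest with Jurkat MHC1+ EVs. NRP1, ANGPT2 and PGF were lowest with JinB8 CD63+ EVs, and NRP2 and VEGFC with JinB8 MHC1+ EVs. IgG beads were highest for KDR, FLT1, NRP1, NRP2 and VEGFC. Without Jurkat MHC1+ replicate 1, the lowest group of KDR, TEK and TIE1 became the untreated cells and that of FLT1 JinB8 CD63+ EVs. In those 15 arrays the largest gap also exceeded the SD for NRP1 (0.15 against 0.09) and ANGPT2 (0.31 against 0.29), in both cases with JinB8 CD63+ EVs below the next group. The range of the group means over the 16 arrays lay between 0.16 for VEGFC and 0.53 for ANGPT2, where the median gene of the arrays had 0.37. That range exceeded the within-group SD for each of the 9 genes, as in VEGFC (0.16 against 0.14) and PGF (0.25 against 0.10). The median within-group SD of all genes was 0.20.

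How far the discordant arrays lay below their group mates differed between the genes. In IgG beads replicate 3 the gap to the mean of replicates 1 and 2 was -4.98 for KDR, -4.59 for NRP1, -4.43 for TEK, -3.79 for TIE1, -3.51 for NRP2 and -2.47 for FLT1. For the ligands it was -1.72 for VEGFC, -0.73 for ANGPT2 and -0.63 for PGF, and the median gene lay 0.28 above. In untreated replicate 3 the gap was -4.04 for KDR, -3.65 for TEK, -3.20 for NRP1, -3.16 for NRP2, -2.93 for TIE1 and -2.48 for FLT1. It was -2.21 for VEGFC, -1.07 for PGF and -0.09 for ANGPT2, with the median gene at 0.25. The receptors and co-receptors thus lay furthest below their group mates and ANGPT2 and PGF least. Jurkat MHC1+ replicate 1 was lower than its group mates for 8 of the 9 genes, by 0.93 for TEK, 0.57 for FLT1, 0.54 for NRP1, 0.52 for KDR and 0.22 to 0.41 for TIE1, ANGPT2, VEGFC and NRP2. PGF was 0.11 higher there.

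**Figure D2:**
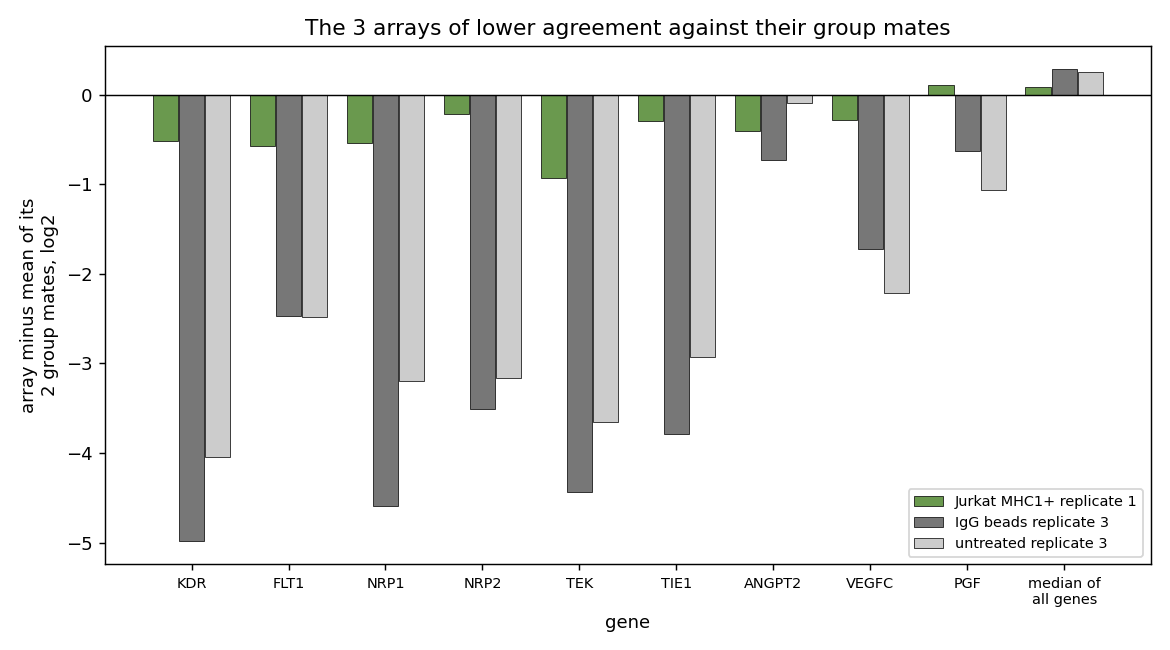
Log2 level in 1 array minus the mean of the other arrays of its group (y axis) for each gene and for the median of all genes (x axis), in Jurkat MHC1+ replicate 1, IgG beads replicate 3 and untreated replicate 3. KDR reached -4.98 in IgG beads replicate 3, ANGPT2 -0.09 in untreated replicate 3, and the median of all genes lay between 0.09 and 0.28.

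The first comparison asks what the EV groups share against the cells with beads alone or against both controls. None of the 9 genes was called, with or without the discordant arrays. Calls are at an adjusted p under 0.05, by limma's moderated t with Benjamini-Hochberg adjustment over all 18417 genes. Against IgG beads, 0.00543% of all genes were called in the 18 arrays and 0.0434% in the 16 arrays. Against all controls it was 0.00543% in 18 arrays and 0.125% in 16.

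The sign of the family depended on the 2 arrays of replicate 3. In all 18 arrays the EV groups lay above IgG beads for 9 of 9 genes, with a median difference of 1.08, where the median of all genes was -0.06. KDR was at 1.51 ± 0.90 (SE; 95% interval -0.40 to 3.43), TEK at 1.41 ± 0.81 and ANGPT2 at 0.05 ± 0.21, with limma adjusted p-values from 0.52 to 0.87 over the 9 genes. In the 16 arrays the EV groups lay below IgG beads for 9 of 9 genes, with a median difference of -0.09 against 0.01 for all genes. KDR was then at -0.15 ± 0.14, FLT1 at -0.26 ± 0.18, NRP1 at -0.20 ± 0.13 and TEK at -0.07 ± 0.19. PGF lay at -0.01 ± 0.11, and the adjusted p of each of the 9 was 1.0. Against all controls in the 18 arrays, KDR was at 1.43 ± 0.69, TEK at 1.35 ± 0.63 and TIE1 at 1.11 ± 0.52. There 2 of the 9 genes, TEK and TIE1, had an unadjusted p under 0.05 (limma adjusted p = 0.27 each), beside 10.3% of all genes. In the 16 arrays none of the 9 did, beside 4.53% of all genes.

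The intervals of the 16 arrays give the differences that the spread among these arrays allows, which may be technical. They are not adjusted for the number of genes, and each control group has 2 arrays there. As a fold change of all EV groups over all controls, KDR was at 0.95 (95% interval 0.81 to 1.11), FLT1 at 0.89 (0.73 to 1.08) and NRP1 at 0.93 (0.80 to 1.07). NRP2 was at 0.97 (0.86 to 1.10), TEK at 1.01 (0.81 to 1.25) and TIE1 at 0.99 (0.88 to 1.13). Among the ligands, VEGFC was at 0.97 (0.85 to 1.11), PGF at 1.00 (0.89 to 1.13) and ANGPT2, with the widest interval, at 0.85 (0.68 to 1.07). In the 18 arrays the same fold was 2.69 for KDR, with an interval of 0.97 to 7.52.

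**Figure D3:**
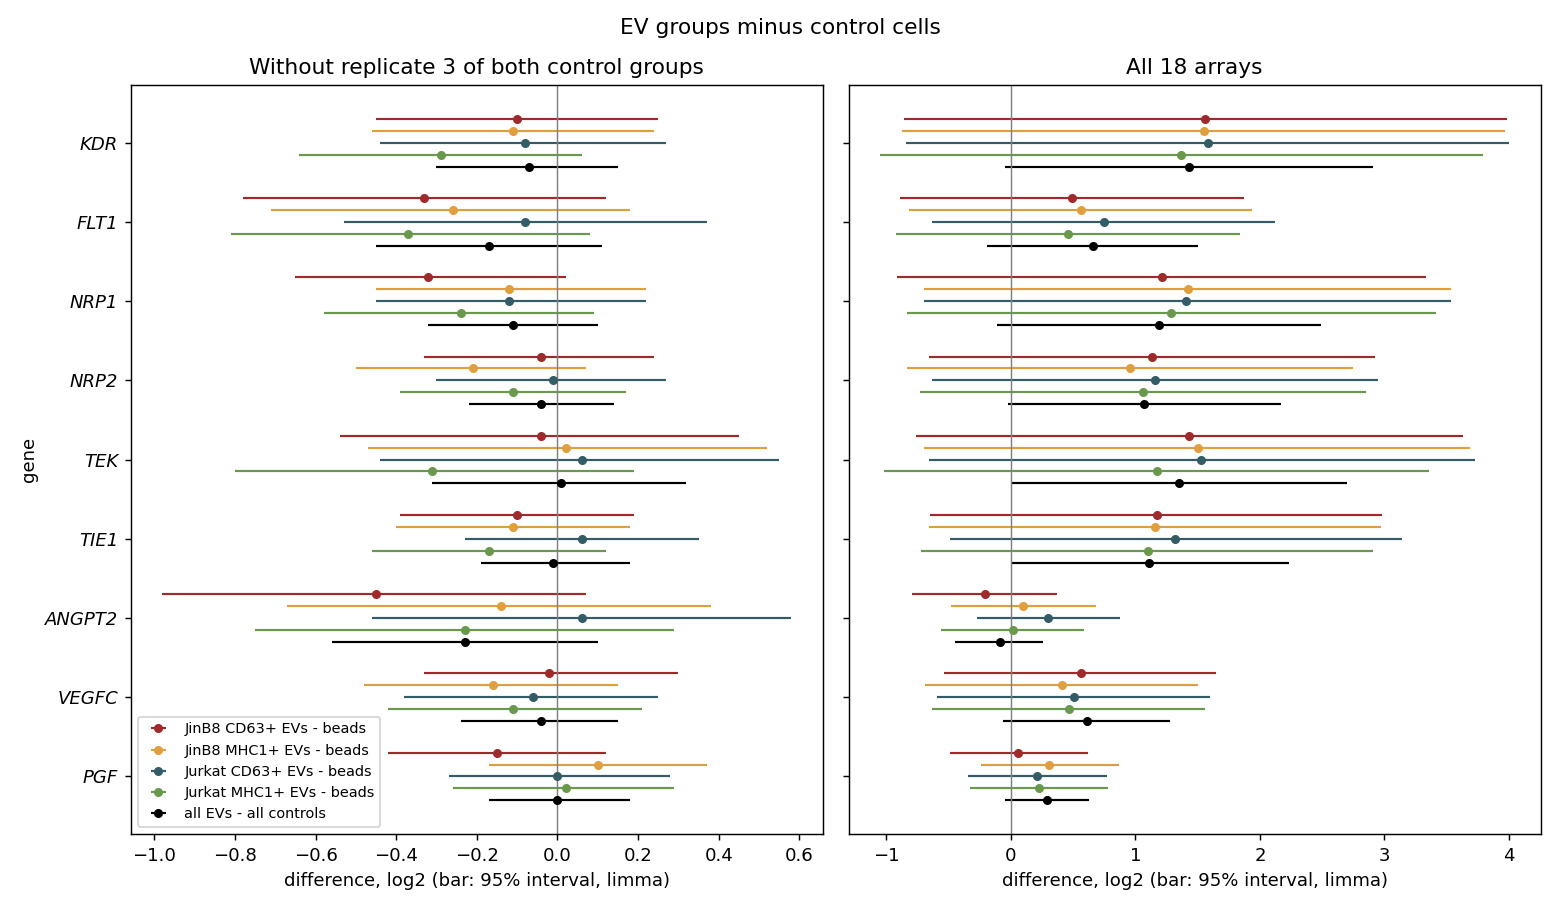
Difference in log2 level (x axis) for each gene (y axis) of each EV group minus IgG beads and of all EV groups minus all controls. Points are limma estimates and bars their 95% intervals, without replicate 3 of both control groups on the left and with all 18 arrays on the right, on different scales. On the left every interval includes 0 and no estimate is beyond -0.45, and on the right the estimates for KDR reach 1.58.

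Taken one EV group at a time against IgG beads, the genes again stayed below the threshold. These 4 comparisons share the bead arrays. With JinB8 CD63+ EVs in the 16 arrays, ANGPT2 was at -0.45 ± 0.24 (SE), FLT1 at -0.33 ± 0.21 and NRP1 at -0.32 ± 0.16, the last with the smallest p of the 9 (0.061 before and 0.75 after adjustment in limma). With JinB8 MHC1+ EVs, FLT1 was at -0.26 ± 0.21, NRP2 at -0.21 ± 0.13 and PGF at 0.10 ± 0.13, with an adjusted p of 1.0 for each. With Jurkat CD63+ EVs the 9 differences lay between -0.12 for NRP1 and 0.06 for TEK, ANGPT2 and TIE1. With Jurkat MHC1+ EVs they lay between -0.37 ± 0.21 for FLT1 and 0.02 ± 0.13 for PGF, and without replicate 1 of that group between -0.18 for FLT1 and 0.00 for TEK. Called genes made up 0.0923% of all genes with JinB8 CD63+ EVs, 0.212% with JinB8 MHC1+ EVs, 0.00543% with Jurkat CD63+ EVs and 0% with Jurkat MHC1+ EVs. In the 18 arrays, KDR was at 1.56 with JinB8 CD63+ EVs, 1.55 with JinB8 MHC1+ EVs, 1.58 with Jurkat CD63+ EVs and 1.37 with Jurkat MHC1+ EVs, with no gene of the 9 called. There the percentages of all genes called were 0.00543%, 0.0434%, 0.00543% and 0%, in the same order of groups.

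IgG beads and untreated cells did not differ detectably in these genes. In the 16 arrays the differences lay between -0.08 ± 0.27 for ANGPT2 and 0.18 ± 0.23 for FLT1, and 8 of 9 were positive with a median of 0.14. In the 18 arrays they lay between -0.29 for NRP1 and ANGPT2 and 0.25 for VEGFC. The adjusted p was 1.0 throughout, and limma called 0% of all genes in either set, with 204 genes at an unadjusted p under 0.05 in 18 arrays and 188 in 16. The widest intervals of the 16 arrays were -0.65 to 0.49 for ANGPT2 and -0.39 to 0.69 for TEK, so changes of that size in these genes could have gone undetected. None of the 9 genes was called by limma's F test across the 6 groups. Over the 16 arrays ANGPT2 had the smallest adjusted p (0.62, with 0.233% of all genes called), and in the 18 arrays 0.0109% of all genes were called.

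The comparisons among the EV groups used the 12 EV arrays and did not involve the discordant controls. Within CD63 capture, JinB8 EVs were set against Jurkat EVs. The donor lines differ in CD47, but effects of CD47, of the line and of the EV preparation cannot be told apart here. ANGPT2 averaged 5.96 ± 0.19 with JinB8 CD63+ EVs and 6.47 ± 0.35 with Jurkat CD63+ EVs (SD, n = 3 each). The difference was -0.51 ± 0.20 (SE; 95% interval -0.94 to -0.08), with a limma adjusted p of 0.91 (0.024 unadjusted). The groups overlapped, since JinB8 CD63+ replicate 3, at 6.0811, was just above Jurkat CD63+ replicate 2, at 6.0767. NRP1, at -0.20 ± 0.15, and TIE1, at -0.16 ± 0.13, were the 2 genes whose arrays did not overlap, both lower with JinB8 EVs. Over all genes, 9.36% did not overlap in this comparison and 0% were called, with 617 genes at an unadjusted p under 0.05. FLT1 was at -0.25 ± 0.19, PGF at -0.15 ± 0.12, TEK at -0.10 ± 0.21, NRP2 at -0.03 ± 0.11, KDR at -0.02 ± 0.15 and VEGFC at 0.05 ± 0.13. For the RNA of KDR, the 95% interval of the difference was -0.34 to 0.30.

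Within MHC1 capture, 7 of the 9 genes were higher with JinB8 than with Jurkat EVs, by small amounts. TEK was at 0.33 ± 0.21 (SE), KDR at 0.18 ± 0.15, NRP1 at 0.13 ± 0.15, FLT1 at 0.10 ± 0.19, PGF at 0.09 ± 0.12, ANGPT2 at 0.08 ± 0.20 and TIE1 at 0.06 ± 0.13. VEGFC was at -0.06 ± 0.13 and NRP2 at -0.10 ± 0.11. The smallest limma adjusted p of the 9 was 0.30, and 0.233% of all genes were called. No gene of the 9 separated the groups completely, beside 32.1% of all genes. Without Jurkat MHC1+ replicate 1 the differences were 0.02 for TEK, 0.00 for KDR, -0.05 for NRP1 and -0.09 for FLT1.

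The comparison of CD63 with MHC1 capture within the JinB8 EVs separated more of the family than any other among the EV groups. The arrays of 5 genes did not overlap, judged on the unrounded values with no tolerance. The closest arrays of the groups were 0.0054 apart for VEGFC, which both read 8.33 when rounded, 0.0174 apart for NRP2 and at least 0.0393 apart for NRP1, ANGPT2 and PGF. NRP2, at 0.17 ± 0.11 (SE), and VEGFC, at 0.15 ± 0.13, were higher with CD63+ EVs. PGF, at -0.25 ± 0.12, ANGPT2, at -0.31 ± 0.20, and NRP1, at -0.20 ± 0.15, were lower with CD63+ EVs. Over all genes 27.3% did not overlap in this comparison, and 0.0923% were called by limma. PGF averaged 7.60 ± 0.14 with JinB8 CD63+ EVs, against 7.85 ± 0.04 with JinB8 MHC1+ EVs (SD, n = 3 each), with an adjusted p of 0.36 in limma. The lowest adjusted p of the 9 was that of PGF. KDR at 0.01 ± 0.15, TIE1 at 0.01 ± 0.13, TEK at -0.06 ± 0.21 and FLT1 at -0.07 ± 0.19 lay close to 0. The spread of the arrays moved with the groups: across the probe sets the SD was 2.05 to 2.19 in the JinB8 CD63+ arrays and 2.21 to 2.25 in the JinB8 MHC1+ arrays. When that SD entered the fit as a covariate, the difference was 0.07 for NRP1, -0.07 for ANGPT2 and -0.22 for PGF, and 0.23 for NRP2 and 0.15 for VEGFC. The receptors near 0 moved away from it in that fit, to 0.41 for TEK, 0.35 for FLT1, 0.29 for KDR and 0.20 for TIE1, so that TEK and FLT1 changed sign and had the largest differences of the 9. None was called, and the smallest limma adjusted p of the 9 was 0.25, for TEK.

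In Jurkat EVs, CD63 capture lay above MHC1 capture for 8 of the 9 genes. TEK was at 0.36 ± 0.21 (SE), FLT1 and ANGPT2 at 0.29 ± 0.19 and 0.29 ± 0.20, TIE1 at 0.23 ± 0.13 and KDR at 0.21 ± 0.15, and the smallest adjusted p in limma was 0.48. No gene of the 9 separated the groups completely, beside 11% of all genes, and 0% of all genes were called, with 1522 at an unadjusted p under 0.05. Without Jurkat MHC1+ replicate 1, TEK was at 0.05, FLT1 at 0.10, ANGPT2 at 0.15, TIE1 at 0.13 and KDR at 0.03. The test of whether the effect of capture differed between the cell lines gave -0.60 ± 0.28 for ANGPT2 (95% interval -1.21 to 0.01; limma adjusted p = 0.21). It gave -0.43 ± 0.30 for TEK and -0.24 ± 0.17 for PGF, with none of the 9 called beside 0.0217% of all genes. The interaction without Jurkat MHC1+ replicate 1 was -0.46 for ANGPT2, -0.12 for TEK and -0.27 for PGF. The F test over the 4 EV groups called none of the 9 genes and 0.0977% of all genes. Its smallest adjusted p among the 9 was 0.46, for ANGPT2.

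**Figure D4:**
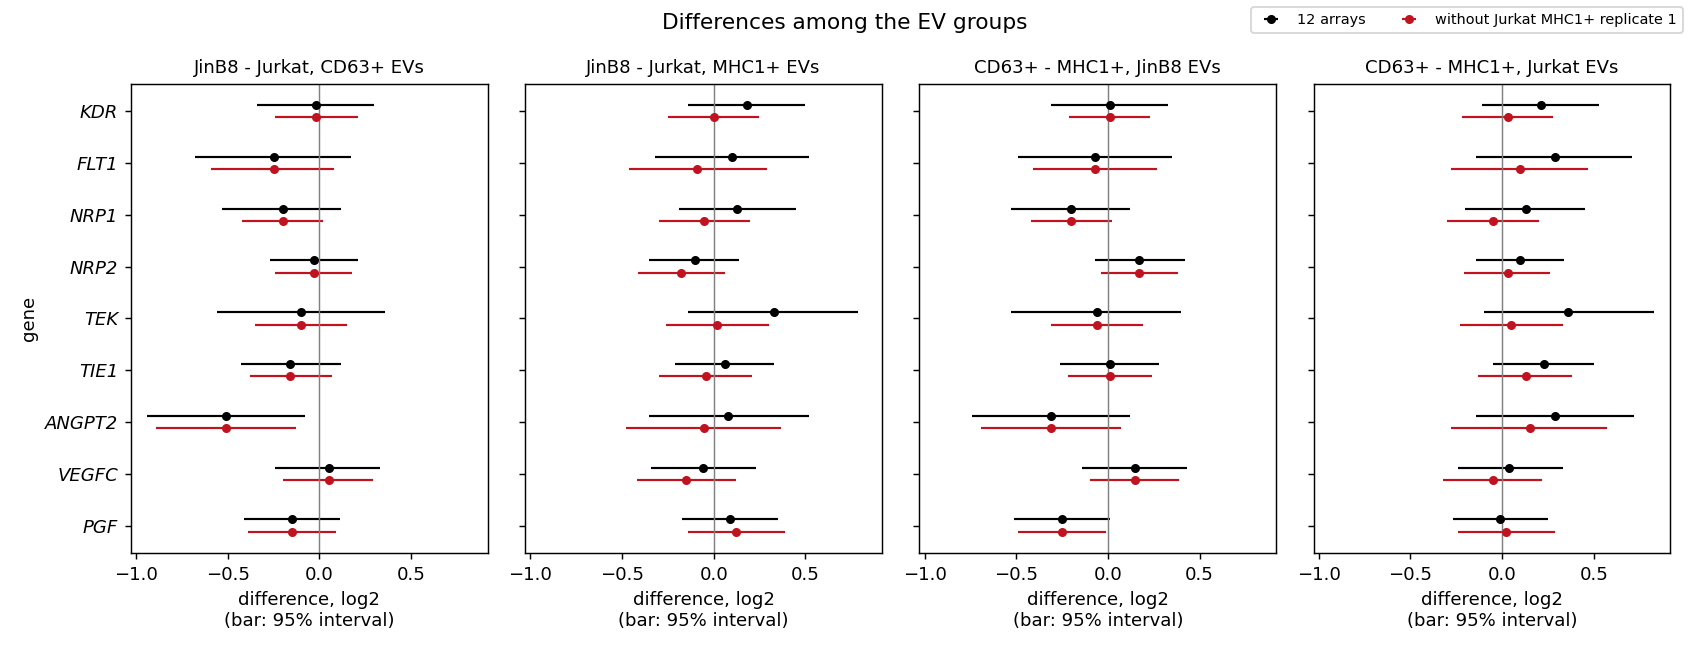
Difference in log2 level (x axis) for each gene (y axis) in the comparisons among the EV groups, from left to right JinB8 minus Jurkat for CD63+ and MHC1+ EVs, and CD63+ minus MHC1+ for JinB8 and Jurkat EVs. Points are limma estimates and bars 95% intervals, in black for the 12 EV arrays and in red without Jurkat MHC1+ replicate 1. ANGPT2 in the first panel, at -0.51, has intervals that leave out 0 in both fits. For PGF in the third panel, at -0.25, only the red interval does (-0.49 to -0.01). The TEK estimates of 0.33 and 0.36 move to 0.02 and 0.05 without that array.

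Within the 16 arrays the receptors varied together. As a description without a test, Pearson's r between KDR and TEK was 0.94, between KDR and FLT1 0.79, KDR and TIE1 0.76, TEK and TIE1 0.79, FLT1 and TIE1 0.73 and FLT1 and TEK 0.70 (n = 16). Without Jurkat MHC1+ replicate 1 these were 0.82, 0.67, 0.59, 0.68, 0.59 and 0.50 (n = 15). NRP1 varied with them, at 0.83 with FLT1, 0.80 with KDR, 0.78 with TEK and 0.70 with TIE1 (n = 16). In 15 arrays its r was 0.74, 0.58, 0.52 and 0.49 in that order. NRP2 had an r of 0.42 to 0.60 with these receptors in the 16 arrays. The points share the groups and the normalization of the arrays. The receptors were also higher in arrays with a wider spread of values, with an r between the gene and the SD of the array of 0.84 for NRP1, 0.76 for TEK, 0.72 for FLT1, 0.71 for KDR and 0.61 for TIE1. That r was 0.54 for ANGPT2, 0.46 for PGF, 0.01 for NRP2 and -0.07 for VEGFC. NRP2 and VEGFC had an r of 0.78 with each other (0.74 in 15 arrays), and VEGFC and PGF one of -0.54 (-0.51 in 15 arrays).

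The genes whose pattern over the 16 arrays was most like that of each member were found among all 18417 genes. KDR was most like IQGAP1, a scaffold protein, at an r of 0.97 (0.92 in 15 arrays). DICER1 and XRN1 followed at 0.96 each (0.89 and 0.88 in 15 arrays). KDR also had an r of 0.71 with the SD of the array, and the cause of these likenesses was not tested. FLT1 was most like ARHGEF7 (0.95), NRP1 most like HNRNPH3 (0.96) and NRP2 most like MACF1 and ARHGAP35 (0.93 each). TEK was most like DDR2, a collagen receptor, at 0.97 (0.96 in 15 arrays), and TIE1 most like PPP6R2 at 0.90. Among the ligands, ANGPT2 was most like DTL, a factor of replication control, at 0.91 in both sets of arrays. VEGFC was most like FAM98B, at 0.86. PGF was most like the tetraspanin CD151, at 0.97 in both sets, followed by PTMA (0.92) and LYPLA2 (0.91).

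The other genes of the pathway were counted by list. None was called in any comparison on the 18, the 16 or the 12 EV arrays. The lists were other ligands and receptors (6 of 9 measured), receptor partners and semaphorins (21 of 22), signal carriers (33 of 38), VEGF-induced transcripts (19 of 20) and transcription factors known to act on these genes (24 of 25). Of all EV groups against all controls in the 16 arrays, 2 of 6 other ligands and receptors, 5 of 21 partners, 17 of 33 signal carriers, 12 of 19 induced transcripts and 12 of 24 factors were positive. Their median differences lay between -0.09 for the partners and 0.03 for the induced transcripts, beside 0.00 over all genes. In CD63 against MHC1 capture within JinB8 EVs the medians lay between -0.14 for the partners and 0.08 for the factors, beside 0.03 over all genes.

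Some genes of these lists lay closest to the threshold. ANGPTL4, a secreted angiopoietin-like inhibitor of lipoprotein lipase, averaged 6.30 ± 0.26 with JinB8 CD63+ EVs, 6.51 ± 0.04 with JinB8 MHC1+ EVs, 6.46 ± 0.14 with Jurkat CD63+ EVs and 6.52 ± 0.26 with Jurkat MHC1+ EVs (SD, n = 3 each). It averaged 6.74 ± 0.21 with IgG beads and 7.09 ± 0.08 in untreated cells (n = 2 each). All EV groups differed from all controls by -0.47 ± 0.11 (SE) in the 16 arrays (limma adjusted p = 0.18) and by -0.26 ± 0.15 in the 18 arrays (0.27). It passed the threshold in the 15 arrays without Jurkat MHC1+ replicate 1, at -0.50 ± 0.10 with an adjusted p of 0.043 in limma, beside 0.337% of all genes. CCN1, a matrix protein induced by VEGF, averaged 9.51 ± 0.04 with JinB8 CD63+ EVs, against 10.15 ± 0.05 with IgG beads in the 16 arrays. Its difference there was -0.63 ± 0.13 (SE; limma adjusted p = 0.14), -0.63 ± 0.12 in 15 arrays (adjusted p = 0.039, beside 0.293% of all genes) and 0.61 ± 0.89 in 18 arrays.

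PTGS2, which encodes cyclooxygenase-2, and CXCL8, which encodes interleukin-8, had lower levels with the CD63+ than with the MHC1+ EVs of JinB8, and passed the threshold when Jurkat MHC1+ replicate 1 was left out. PTGS2 averaged 5.75 ± 0.32 with JinB8 CD63+ EVs, against 6.66 ± 0.13 with JinB8 MHC1+ EVs, and 6.14 ± 0.05 with Jurkat CD63+ EVs and 5.69 ± 0.52 with Jurkat MHC1+ EVs (SD, n = 3 each). Without replicate 3, it averaged 6.60 ± 0.11 with IgG beads and 6.57 ± 0.40 in untreated cells (n = 2 each). CXCL8 averaged 9.23 ± 0.29 with JinB8 CD63+ EVs, against 10.11 ± 0.10 with JinB8 MHC1+ EVs, and 9.37 ± 0.16 and 9.37 ± 0.31 with the CD63+ and MHC1+ EVs of Jurkat. In the same controls it averaged 9.84 ± 0.19 with IgG beads and 9.82 ± 0.05 in untreated cells. In the 12 EV arrays CD63 capture differed from MHC1 capture within JinB8 by -0.92 ± 0.23 (SE) for PTGS2 and -0.88 ± 0.18 for CXCL8, with limma adjusted p-values of 0.20 and 0.12. Without Jurkat MHC1+ replicate 1 both differences were the same, their SEs fell to 0.15 each, and both passed the threshold at limma adjusted p-values of 0.013 and 0.015, beside 1.17% of all genes. In the F test over the 6 groups in 15 arrays their limma adjusted p-values were 0.044 for PTGS2 and 0.034 for CXCL8. NOS3, the endothelial nitric oxide synthase downstream of KDR, averaged 7.37 ± 0.24 with JinB8 CD63+ EVs, against 6.87 ± 0.06 with JinB8 MHC1+ EVs. The difference of 0.50 ± 0.14 (SE) had a limma adjusted p of 0.23, and of 0.056 without that array. With the CD63+ and MHC1+ EVs of Jurkat, NOS3 averaged 7.23 ± 0.00 and 7.23 ± 0.15 (SD, n = 3 each). Its mean was 7.01 ± 0.11 with IgG beads and 7.08 ± 0.04 in untreated cells (n = 2 each).

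VEGFA, the main ligand of KDR and FLT1, averaged 6.30 ± 0.22 with JinB8 CD63+ EVs, against 6.60 ± 0.11 with JinB8 MHC1+ EVs, and 6.57 ± 0.07 and 6.42 ± 0.03 with the CD63+ and MHC1+ EVs of Jurkat (SD, n = 3 each). It averaged 6.58 ± 0.08 with IgG beads and 6.39 ± 0.31 in untreated cells (n = 2 each). All EV groups differed from all controls by -0.01 ± 0.10 (SE; limma adjusted p = 1.0) in the 16 arrays. SEMA3F, a semaphorin that binds NRP2, averaged 9.19 ± 0.13 with JinB8 CD63+ EVs, against 8.88 ± 0.10 with JinB8 MHC1+ EVs, and 9.24 ± 0.09 and 9.39 ± 0.12 with the CD63+ and MHC1+ EVs of Jurkat. It had the smallest p of the partners in the F test over the EV groups (0.0082 before and 0.45 after adjustment in limma). PLXNA3, a plexin that signals with the neuropilins, averaged 6.56 ± 0.10 with JinB8 CD63+ EVs, against 6.80 ± 0.03 with JinB8 MHC1+ EVs, and 6.91 ± 0.13 and 6.97 ± 0.07 with the CD63+ and MHC1+ EVs of Jurkat (adjusted p = 0.45 in the same test). The other genes named by the same rule were ANGPT4, the adaptor NCK1 and the transcription factors GATA2 and MEF2C, with adjusted p-values of 0.45 or 0.46 in that F test.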

How the data were processed

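RNA of HUVEC was measured on 18 Affymetrix arrays. Per the submitters' processing notes, the authors used RMA in Affymetrix Expression Console (versions not given in the sources used here). This method, with its background correction, quantile normalization and probe summary, returns log2 values, and the deposited values (2.13 to 14.13) were read as log2 from their range. No batch was given. The number of arrays limits the precision, since arrays carry no read depth.

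Of 33297 probe sets, 12083 had no gene and 1754 several symbols in the platform annotation. From the other 19460 the one with the highest mean was kept for each of 18417 genes, and 769 genes had several. Groups came from the bracketed sample names. limma 3.58.1 in R 4.3.3 (lmFit, eBayes, 1 mean per group) was fitted to 18 and to 16 arrays, and to the 12 EV arrays, tested on simulated data first. Other tables and the plots came from pandas 2.3.3, numpy 2.4.6 and matplotlib 3.10.9 under Python 3.11.15. The alternatives were 15 arrays, the array SD as a covariate, array weights, quantile normalization again, centring, leaving out the lowest 25% of genes, all probe sets, trend and robust options, other controls, only the groups compared and each array left out. Members and lists were chosen with earlier results of these data known. List genes are named where called, and otherwise as the 2 of each list with the smallest p in the F test over the EV groups.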

Additional observations from a re-analysis of the deposited data

How the results depend on the processing

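No call was made for any of the 9 genes, and this held under the alternatives run except array weights. With gene-by-gene array weights in the 12 EV arrays, limma called 1 gene of the 9 for JinB8 against Jurkat within MHC1 (VEGFC, -0.23, adjusted p = 0.045), 1 for CD63 against MHC1 within JinB8 (PGF, -0.31, adjusted p = 0.045), 2 for the interaction (ANGPT2, -0.78, adjusted p = 0.016, and PGF, -0.42, adjusted p = 0.034) and 1 in the F test over the 4 EV groups. The same weights called 6582, 4245, 5700 and 5840 genes in these tests, against 43, 17, 4 and 18 without them, and gave Jurkat MHC1+ replicate 1 a weight of 0.104 and replicate 2 one of 3.71. Weights estimated by restricted maximum likelihood did not converge and are not used, and the gene-by-gene weights are given instead. Without convergence they called 9 of the 9 genes in the F test over the 6 groups, beside 17584 of all genes. In JinB8 against Jurkat within CD63 they called 0 of the 9 and 0 of all genes. Of 2754 alternative values for 108 differences, 2425 kept their direction and side of the threshold, 325 uncalled ones changed sign, 4 passed the threshold and 0 reversed. With each array left out in turn, 0 genes of the 9 were called in any test. The count over all genes in JinB8 against Jurkat within MHC1 then ran between 8 and 4398, in CD63 against MHC1 within JinB8 between 6 and 327, and in the interaction between 0 and 3015. Against all controls it was 1 in 18 arrays, 23 in 16, 62 in 15 and 184 with the array SD as a covariate, and in the F test over 6 groups 2, 43, 122 and 312. No paired analysis was possible because replicate numbers were given in accession order and pair nothing.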
